A study of Mus musculus with 6 samples.

Results

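The 8 genes described here, Ubb, Hspa8, Hsp90ab1, Hsp90aa1, Calm2, Fth1, Actb and Eef1a1, encode ubiquitin, heat shock proteins and other abundant proteins of the cytoplasm, and are 8 of the 32285 genes counted in the series. Their rows were taken by gene symbol. The set was chosen by measured values: Ubb was selected on its Run against Sed difference, which passed a test together with those of mitochondrial genes, and the other 7 were added as abundant cytoplasmic mRNAs. The Run against Sed values below are therefore a description with no test, and tests were made only for contrasts whose values did not choose the genes. The choice of cytoplasmic mRNAs still bears on the contrast of background droplets against nuclei. In nuclei the 8 genes held 0.0335% to 0.134% of all UMIs (unique molecular identifiers, which mark single RNA molecules). In background droplets they held 0.114% and 0.0623% in dataset 1 and 1.27% to 1.41% in dataset 2. Their share was thus highest in the background of dataset 2.

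Single-nucleus RNA-Seq was made from the prelimbic (PL) area of the medial prefrontal cortex of male C57BL/6 mice, in 6 libraries of the 10x 3′ V3 kit. Run and Sed males were raised by mothers with or without a running wheel in the cage, and from weaning they were kept in groups (GH) or in social isolation (SI). Dataset 1 (cohort 1) holds 1 Run GH and 1 Sed GH library, from males that had competed in the tube test of social dominance and ranked at the top or the bottom, and dataset 2 (cohort 2) holds 1 library of each combination of Run or Sed with GH or SI from males with no behavioural testing. Each library pooled the PL of several males, so differences between single mice are not in the data and each group has 1 library per dataset. The labels give an age of 21 postnatal days, while the methods of the study describe adults. Nuclei, not whole cells, were loaded, and introns were counted.

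Between 4997 and 9936 nuclei per library were kept, with medians of 1637 to 6250 UMIs, the shallowest in Sed GH of dataset 2. Barcodes from 30 UMIs up to a library's limit of 310 to 1577 UMIs, well below its UMI minimum for nuclei, served as background droplets, 58769 to 83838 per library, with median UMIs of 960 and 1093 in dataset 1 and of 81 to 300 in dataset 2. Mitochondrially encoded RNA was 0.0368% and 0.0157% of nuclear UMIs in Run GH and Sed GH of dataset 1, and 0.306% and 0.115% in Run and Sed under GH and 0.308% and 0.162% under SI in dataset 2. Values of the 4 libraries of dataset 2 are given below in this order. It was thus higher in Run than in Sed in each of the 3 pairs of libraries. Rebuilt clusters were pyramidal-like, PV-, SST-, VIP- and NPY-interneuron-like, astrocyte-like, oligodendrocyte-like, oligodendrocyte precursor-like and, in dataset 2 alone, microglia-like, and are called below by the class. Pyramidal nuclei were 76.4% to 84.2% of the nuclei. Between 5 and 22 barcodes of nuclei were shared by any pair of libraries.

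Ubiquitin is a small protein that is joined to other proteins and marks many of them for breakdown by the proteasome. The heat shock proteins Hspa8, Hsp90ab1 and Hsp90aa1 are chaperones that fold new or damaged proteins, and the stress-inducible part of this system, which includes Ubb, is switched on by heat shock factors. Neurons, with their long processes and high synaptic turnover, use both systems heavily. Calm2 encodes the calcium sensor calmodulin, Fth1 the heavy chain of the iron store ferritin, Actb the cytoskeletal protein beta-actin, and Eef1a1 the elongation factor that brings charged tRNAs to the ribosome. Mature mRNAs of such genes reside mostly in the cytoplasm, which a preparation of nuclei is meant to leave behind.

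The genes are short. On GRCm38 (mm10) with GENCODE M21, Ubb lies on chr11:62551171-62553213 (plus strand) and spans 2043 bases, of which 18.0% are intron. Hspa8 (chr9:40800984-40810087), Fth1 (chr19:9980598-9985098), Hsp90ab1 (chr17:45567775-45573271), Hsp90aa1 (chr12:110690605-110702728), Calm2 (chr17:87433412-87446935), Actb (chr5:142903115-142906754) and Eef1a1 (chr9:78478449-78489151) span 3640 to 13524 bases. All 8 were in the shortest 28.3% of 13772 protein-coding genes with counts, whose median span was 27853 bases. Calm2, at 89.2% intron, was the only one of the 8 above the median intron share of 83.1%. Processed copies of several of these genes can take or remove reads, so absolute levels are uncertain.

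The 250 bases before the start sites that RefSeq (GRCm38.p6) lists were also read, which were found for Ubb, Fth1 and Eef1a1 only. Any part of these sequences in the differences between background droplets and nuclei or between datasets was not tested. Capitals mark CCAAT boxes (CCAAT or ATTGG) and GC boxes (GGGCGG or CCGCCC), both common elements of promoters of widely expressed genes. The windows are chr11:62550921-62551170 and chr11:62551481-62551730 (plus strand) for Ubb, chr19:9982396-9982645 (plus strand) for the downstream of the 2 Fth1 starts and chr9:78481725-78481974 (minus strand) for Eef1a1. Each runs 5′ to 3′.
Ubb, upstream start: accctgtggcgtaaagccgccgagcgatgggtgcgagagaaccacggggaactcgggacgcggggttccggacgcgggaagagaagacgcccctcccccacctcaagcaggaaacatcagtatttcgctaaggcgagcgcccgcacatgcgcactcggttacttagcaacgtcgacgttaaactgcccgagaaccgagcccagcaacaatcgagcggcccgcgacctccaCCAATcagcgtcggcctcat
Ubb, downstream start: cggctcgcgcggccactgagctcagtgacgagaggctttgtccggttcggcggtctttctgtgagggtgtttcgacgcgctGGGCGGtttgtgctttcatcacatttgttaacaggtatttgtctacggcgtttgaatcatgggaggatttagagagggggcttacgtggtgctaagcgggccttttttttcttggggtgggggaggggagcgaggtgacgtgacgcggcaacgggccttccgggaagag
Fth1, downstream start: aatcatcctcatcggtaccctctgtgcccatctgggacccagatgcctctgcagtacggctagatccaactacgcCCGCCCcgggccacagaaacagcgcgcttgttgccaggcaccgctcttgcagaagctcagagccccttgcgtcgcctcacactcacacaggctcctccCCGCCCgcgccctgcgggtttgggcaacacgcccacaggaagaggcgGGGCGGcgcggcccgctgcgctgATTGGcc
Eef1a1: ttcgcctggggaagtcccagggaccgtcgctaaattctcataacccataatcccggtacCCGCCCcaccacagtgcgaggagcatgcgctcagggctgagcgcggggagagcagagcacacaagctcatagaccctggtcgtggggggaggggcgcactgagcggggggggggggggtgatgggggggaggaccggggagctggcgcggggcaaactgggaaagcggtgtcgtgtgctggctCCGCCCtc
The first Ubb window held 1 CCAAT box, 20 bases before the start, and the second held 1 GC box. The downstream Fth1 window held 3 GC boxes and 1 CCAAT box, and the upstream one, chr19:9980350-9980599, which is not shown, held 0 of either, and the Eef1a1 window held 2 GC boxes. A CCAAT box was present in 33.8% and a GC box in 32.7% of all 32851 windows of this length. The core of the heat shock element, searched as GAANNTTC and as TTCNNGAA, was in none of these windows and in 6.69% and 7.17% of all windows. A match or its absence describes these letters in these windows alone.

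Higher in background droplets than in nuclei was the property that all 8 genes shared. All but Ubb were added as abundant cytoplasmic mRNAs, so a higher share outside nuclei was likely from the choice itself. Summed UMIs of background droplets were compared with those of nuclei of the same library with edgeR's quasi-likelihood test (6 libraries, library as block, Benjamini-Hochberg adjustment over 19447 genes at 0.05). All 8 genes were called higher in the background, against 30.5% of all genes, with log2 fold changes from 2.01 ± 0.34 (SE) for Calm2 to 3.39 ± 0.39 for Fth1 and adjusted p from 0.00119 to 0.00469. The median over the 8 was 2.75 and over all genes -0.05. Per library, the 8 genes together were 2.98-fold and 1.86-fold higher in the background in Run GH and Sed GH of dataset 1. The ratio was 10.1-fold, 13.0-fold, 10.2-fold and 14.5-fold in dataset 2, so the ratios of the datasets did not overlap. The background droplets were unlike, with median UMIs of 960 and 1093 in dataset 1 and of 81 to 300 in dataset 2. In dataset 1, 82376 and 103391 barcodes met the gene and mitochondrial limits of nuclei, and the UMI minimum left 8163 and 5142. The part of this in the ratios was not tested.

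Dataset 2 against dataset 1 gave the other shared difference. In the fit with cohort, maternal environment and housing as terms, all 8 genes were higher in dataset 2 in nuclei of all classes (20.8% of 18761 genes were called higher) and in pyramidal nuclei (20.1% of 17962). In the background, 8 of 8 were also higher, against 35.4% of 17667 genes. Adjusted p ranged from 0.000453 to 0.00464 in pyramidal nuclei and from 1.61e-05 to 0.000144 in the background. Median log2 differences of the 8 were 1.71, 1.72 and 3.39, respectively, while the median of all genes was near 0. Mice, behavioural testing, preparation and sequencing depth differ between the datasets and cannot be told apart. In sums over all nuclei, fewer nuclei of a class and less RNA per nucleus cannot be told apart either. With the upper bound on background RNA, given further on, taken off the nuclei, 0 of the 8 were called higher by edgeR. In dataset 2 that step sets most of the 8 genes to 0, so the loss of the calls follows from it and is no test of the difference. Without that step DESeq2 called all 8 in each. In all nuclei, edgeR called fewer of the 8 with no UMI minimum and among nuclei with no mitochondrial UMI, as given under the processing. Of all genes called in nuclei of all classes 53.1% were higher in dataset 2, and 68.8% with library totals in place of TMM factors, which moved the median of all genes by 0.15.

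**Figure D1:**
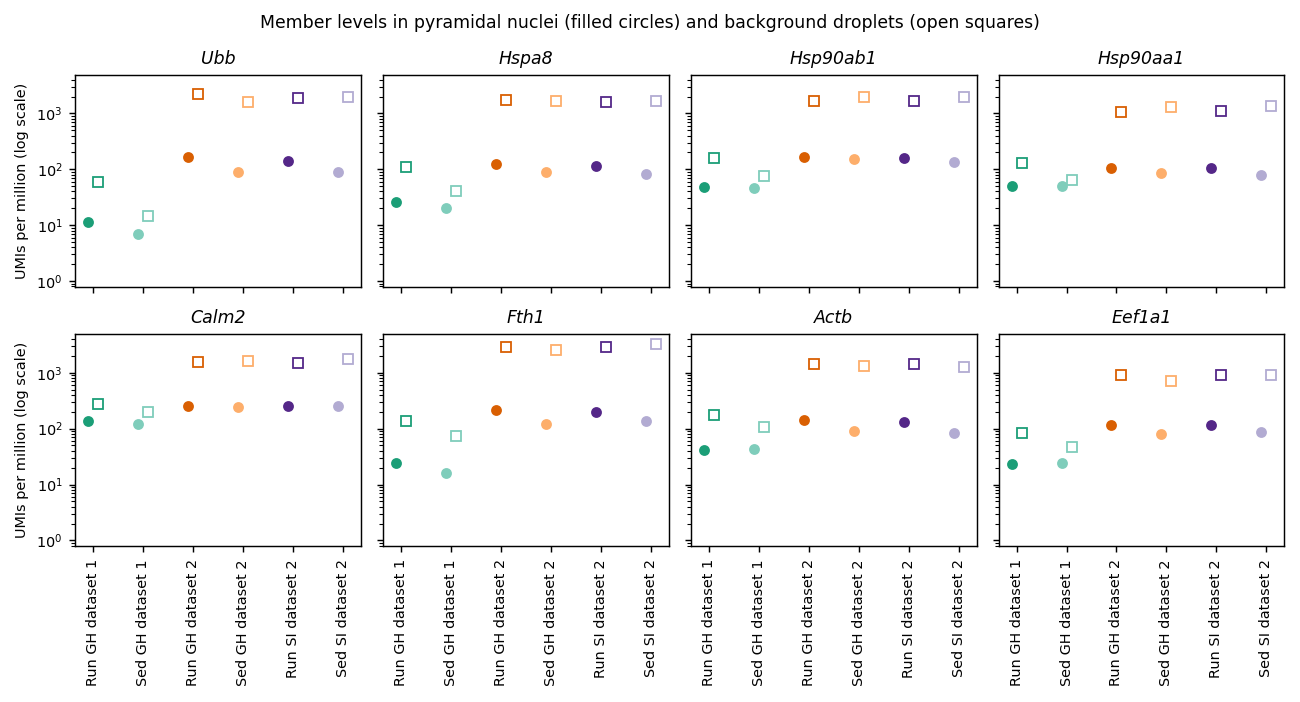
UMIs per 1000000 (log scale) of each gene in pyramidal nuclei (filled circles) and in background droplets (open squares), with 1 point per library and the 6 libraries on the x axis. Both series of points step up from dataset 1 to dataset 2, and the squares lie above the circles, by the most in dataset 2.

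Ubb encodes a chain of ubiquitin repeats and is induced by stress. In pyramidal nuclei it was at 11.4 UMIs per 1000000 (CPM) in Run GH and 6.96 in Sed GH of dataset 1, and at 168, 87.6, 138 and 88.0 in dataset 2 (Run and Sed under GH, then under SI). In background droplets it was at 59.7, 14.5, 2199, 1615, 1872 and 1927 CPM in the same order. Every value of dataset 2 lay above every value of dataset 1, and in nuclei the lowest of the 6 was Sed GH of dataset 1. Ubb had the widest gap between the datasets of the 8 genes, a log2 difference of 3.60 ± 0.12 (SE) in pyramidal nuclei and of 5.46 ± 0.53 in the background.

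Hspa8 encodes the constitutive Hsp70 chaperone that strips clathrin coats and folds new proteins. In pyramidal nuclei it was at 25.9 and 20.5 CPM in Run GH and Sed GH of dataset 1 and at 127, 87.8, 114 and 80.8 CPM in dataset 2, a log2 difference of 2.03 ± 0.10. In the background it ran from 41.6 and 109 CPM in dataset 1 to between 1576 and 1763 CPM in dataset 2. The datasets did not overlap in either compartment.

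Hsp90ab1 encodes the constitutive and Hsp90aa1 the more inducible form of the chaperone Hsp90, which holds kinases and steroid receptors ready. In pyramidal nuclei Hsp90ab1 was at 48.5 and 46.6 CPM in dataset 1 and at 168, 154, 162 and 135 CPM in dataset 2, and the cohort difference was 1.59 ± 0.10 on the log2 scale. Hsp90aa1 was at 49.4 and 50.1 CPM in dataset 1 and at 105, 84.6, 104 and 79.7 CPM in dataset 2, with a smaller difference of 0.75 ± 0.11 that was no longer called by edgeR without Run GH of dataset 2 (0.73, adjusted p 0.0510). In the background of dataset 2 both were higher in Sed than in Run. Hsp90ab1 was there at 1948 and 1938 CPM in Sed GH and Sed SI against 1648 and 1649.6 CPM in Run GH and Run SI, and Hsp90aa1 at 1274 and 1329 against 1049.7 and 1119.8 CPM.

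Calm2, a gene for the calcium sensor calmodulin, varied little within dataset 2. In pyramidal nuclei it was at 136 and 121 CPM in dataset 1 and at 249.7, 248.9, 257 and 251 CPM in dataset 2, where the 4 libraries were nearly equal. Its cohort difference was 0.79 ± 0.11 in pyramidal nuclei and 2.33 ± 0.30 in the background, where it ran from 197 to 1762 CPM. It also had the smallest ratio of background to nuclei of the 8 genes in 5 of the 6 libraries, 5.85-fold to 7.10-fold in dataset 2.

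Fth1 encodes the ferritin heavy chain, which oxidizes iron for storage. In pyramidal nuclei it was at 24.0 and 16.0 CPM in dataset 1 and at 213, 122, 197 and 135 CPM in dataset 2, a log2 difference of 2.88 ± 0.11. In the background it was at 139 and 75.3 CPM in dataset 1 and at 2939, 2507, 2869.8 and 3325 CPM in dataset 2, with no overlap. Its ratio of background to nuclei was 5.14-fold and 4.12-fold in dataset 1 and 13.1-fold to 23.3-fold in dataset 2.

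Actb encodes beta-actin, of filaments that shape dendritic spines. In pyramidal nuclei it was at 41.4 and 42.5 CPM in dataset 1 and at 141, 90.2, 133 and 85.1 CPM in dataset 2, a log2 difference of 1.26 ± 0.16. Eef1a1, the elongation factor, was at 23.5 and 24.3 CPM in dataset 1 and at 115, 81.9, 117 and 85.7 CPM in dataset 2, a difference of 1.86 ± 0.14. For both genes the 2 libraries of dataset 1 were nearly equal, while in dataset 2 each Run library was above each Sed library.

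Lists of other cytoplasmic mRNAs were also higher in the background, where 30.5% of all genes were called higher and 29.0% lower. In background against nuclei, all 32 cytoplasmic ribosomal protein genes (median log2 2.97), all 13 mitochondrially encoded genes (3.47), all 33 other abundant cytoplasmic mRNAs (2.25) and all 6 translation elongation factors (2.32) were called higher. Eef1b2 (2.83) and Eef2 (2.44) led the elongation factors beside Eef1a1. Of 9 nuclear-retained RNAs tested, 0 were higher and 6 lower (median -0.88), among them the antisense RNA Kcnq1ot1 at -1.59. The lists were fixed with earlier results of these data known.

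Within the ubiquitin list, 13 of 18 genes were higher and 2 lower in the background (median 0.82). Rps27a, which encodes a ubiquitin fused to a ribosomal protein, was higher by 3.09, whereas the ubiquitin ligase genes Ube3a (-1.10) and Huwe1 (-0.44) were lower. Of 30 cytoplasmic chaperone genes, 25 were higher and 2 lower (1.43), the latter Dnajc6, a clathrin-uncoating partner of Hspa8 (-0.80), and Fkbp5 (-0.41), a partner of Hsp90 at steroid receptors. Of 14 genes of a heat shock list, with Hspa8, Hsp90aa1, Ubb and heat shock factors among them, 11 were higher and 1 lower (2.79). Hspa1a, the inducible Hsp70, was higher by 3.27 on 804 UMIs in all, and the factor Hsf1 was lower at -0.72.

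The remaining lists gave the same picture of the background. Of 12 chaperones of the endoplasmic reticulum and mitochondria 11 were higher (median 1.46), led by Calr (2.49) and Hspa5 (2.43). Of 10 ferritin and iron genes 7 were higher (0.74), with the ferritin light chain Ftl1 at 2.93. Of 14 actin genes 13 were higher (2.02), with Tmsb4x, the actin monomer binder, at 3.12 and Actg1 at 3.02, and Cap1 was lower at -0.45. Without the 8 genes themselves, 5 of 5 elongation factors, 12 of 17 ubiquitin genes and 22 of 27 cytoplasmic chaperones were higher. So were 8 of 11 heat shock genes, 6 of 9 iron genes and 12 of 13 actin genes.

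Between datasets, in nuclei of all classes, 31 of 32 ribosomal protein genes were higher in dataset 2 (median log2 2.35), as were 11 of 13 mitochondrially encoded genes (2.42, with 1 lower) and 22 of 33 other abundant cytoplasmic mRNAs (0.82, with 1 lower). Of all genes, 20.8% were called higher and 18.4% lower. Among ubiquitin genes 9 of 18 were higher and 3 lower, among cytoplasmic chaperones 18 of 30 were higher and 4 lower, and among heat shock genes 8 of 13 tested were higher and 1 lower. Of the chaperones, the Hsp90 activator Ahsa1 had the widest difference (2.24), and Hsph1 (-0.51) and Fkbp5 (-0.64) were lower. In the remaining lists 11 of 14 actin genes, 3 of 6 elongation factors, 8 of 12 chaperones of the endoplasmic reticulum and mitochondria, and 3 of 9 iron genes were also higher, the iron list with 2 lower. Without the 8 genes themselves the counts higher were 8 of 17 ubiquitin genes, 15 of 27 cytoplasmic chaperones, 5 of 10 heat shock genes, 10 of 13 actin genes, 2 of 5 elongation factors and 2 of 8 iron genes. Of 9 nuclear-retained RNAs 2 were higher, Malat1 (1.66) and Snhg11 (0.65), and 6 lower.

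The share of these mRNAs differed with the size of the barcode. In Run GH of dataset 2, the 8 genes made up 1.37% of UMIs in barcodes of 100 to 299 UMIs, 0.215% in those of 1000 to 2999 and 0.0612% in those of 10000 or more. In Run GH of dataset 1 the shares of the same bins were 0.138%, 0.102% and 0.0301%. In barcodes under 100 UMIs the shares were below those of the 100 to 299 bin, at 0.632% to 1.06% in the former library and 0.0730% to 0.114% in the latter. From 100 UMIs up, the share thus fell by more over these bins in Run GH of dataset 2. The same bins hold unlike barcodes, as the UMI minimum of nuclei was 1272 in that library and 2452 in Run GH of dataset 1. Short genes as a class lay above long ones in the background, by much less in dataset 1. In dataset 2 protein-coding genes under 10 kb had a median log2 of background over nuclei of 1.68, 2.16, 1.73 and 2.05, against -0.88, -1.08, -0.86 and -1.05 for those over 100 kb. In Run GH of dataset 1 the values were 0.70 and -0.12. In Sed GH of dataset 1 they were 0.12 and -0.05, with genes of 10 to 30 kb at -0.13, below the longest. Ubb lay above 89.6% to 98.5% of the short genes in the 6 libraries, and Calm2 above 65.9% to 79.2%.

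The share of background that would hold every UMI of the 8 genes in the nuclei was 33.6% and 53.8% of nuclear UMIs in dataset 1. In dataset 2 it was 9.95%, 7.72%, 9.85% and 6.90%. Markers of other classes set an upper bound on that share of 19.0% and 19.2% in dataset 1 and of 12.5%, 18.3%, 13.4% and 13.1% in dataset 2. The counts of 0, 0, 6, 8, 7 and 7 of the 8 genes fell under the bound in the 6 libraries. In all nuclei of dataset 2 the level of most of these genes was therefore no higher than the bound on background RNA allows. In all nuclei of dataset 1 it was above the bound. The bound was computed in pyramidal nuclei, where Fth1 of Run GH in dataset 1 lay under it (17.3% against 19.0%). In the other classes of dataset 1, from 3 of 16 (NPY interneurons) to 11 of 16 values (VIP interneurons) lay under the bound of the class.

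Run over Sed is described here for each pair of libraries, with exact Poisson intervals (95%) that cover counting error and not mice. In pyramidal nuclei Ubb was higher in Run by a log2 ratio of 0.71 (0.48 to 0.95) in the GH pair of dataset 1, 0.94 (0.83 to 1.05) in the GH pair of dataset 2 and 0.65 (0.57 to 0.74) in the SI pair. Fth1 followed with 0.58, 0.81 and 0.55, and Hspa8 with 0.34, 0.53 and 0.49. All 3 pairs lay above 0 for these genes. Actb was at -0.04, 0.65 and 0.64, Eef1a1 at -0.05, 0.49 and 0.45, and Hsp90aa1 at -0.02, 0.31 and 0.39, so that in dataset 1 these were nearly level. Hsp90ab1 was at 0.06, 0.12 and 0.27 and Calm2 at 0.17, 0.00 and 0.04, the 2 genes with the smallest ratios in dataset 2.

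The same ratio for the mitochondrially encoded genes together was 1.23, 1.38 and 0.94 in pyramidal nuclei, above that of each of the 8 genes in all 3 pairs. For ribosomal protein genes it was 0.10, 0.43 and 0.47, and for nuclear-retained RNAs -0.18, -0.22 and -0.27. Mitochondrially encoded and ribosomal protein genes were thus higher in Run in all 3 pairs, and nuclear-retained RNAs were lower. The part of these values in those of the 8 genes was not tested. The median of all genes was -0.05, 0.12 and 0.09. In the smaller classes, which come from the same 3 pairs of libraries and are no replicates of them, the 16 class-by-pair ratios of Ubb with enough counts ran from -0.04 to 1.60 with a median of 0.62. Ubb was chosen on this contrast, so the ratios only describe it. Medians of the other genes were Fth1 0.59, Actb 0.57, Eef1a1 0.56, Hspa8 0.36, Calm2 0.26, Hsp90ab1 0.08 and Hsp90aa1 0.12, over 17 to 22 ratios each. The 2 GH pairs share no library, and the pairs of dataset 2 are 4 separate libraries.

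In background droplets the order of the pairs was another. Ubb was higher in Run by 2.04 (1.95 to 2.13) in dataset 1 and by 0.45 (0.42 to 0.48) in the GH pair of dataset 2, and was at -0.04 (-0.06 to -0.02) in the SI pair. Hspa8 was at 1.39, 0.09 and -0.10, Hsp90ab1 at 1.03, -0.24 and -0.23, and Hsp90aa1 at 1.02, -0.28 and -0.25. All 8 genes together were at 0.87, 0.09 and -0.12. In dataset 2 the Run and Sed backgrounds were thus close while the nuclei differed by 0.43 and 0.38, and in dataset 1 the backgrounds differed by more than the nuclei, which differed by 0.14.

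**Figure D2:**
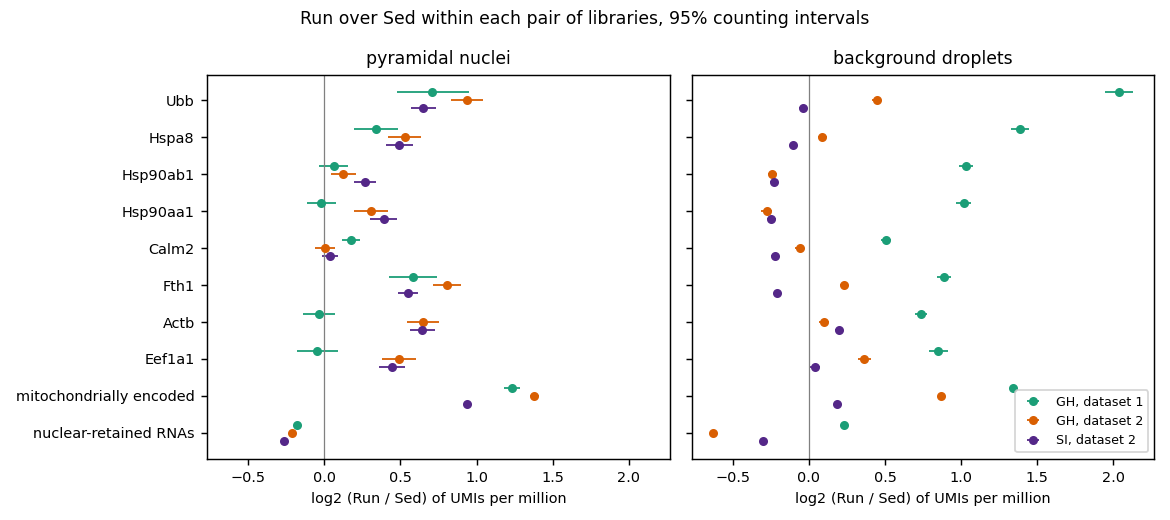
Log2 ratio of UMIs per 1000000 in Run over Sed (x axis) for each gene and for 2 gene lists (y axis), in pyramidal nuclei (left) and background droplets (right), 1 point per pair of libraries with its 95% counting interval. Ubb, Hspa8 and Fth1 lie right of 0 in all 3 pairs on the left, and on the right the points of dataset 1 lie right of those of dataset 2.

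In dataset 2 pyramidal nuclei of Run and Sed with a like mitochondrial share differed by less in the 8 genes than all pyramidal nuclei did, and in dataset 1 this did not hold for nuclei with no mitochondrial UMI. Pyramidal nuclei of Run GH in dataset 2 carried 759 CPM of the 8 genes together where up to 0.1% of UMIs were mitochondrial, 1088 at 0.1% to 0.3% and 1632 at 0.3% to 1%, and barcodes over 1%, outside the limit for nuclei, carried 3306 CPM. Their median UMIs fell from 7597 to 1605 over the same bins, so mitochondrial share, depth and the 8 genes moved together. Within these bins the log2 ratio of Run to Sed in the GH pair of dataset 2 was -0.15 (-0.24 to -0.05), 0.08 (0.03 to 0.12) and 0.28 (0.16 to 0.40), against 0.43 over all pyramidal nuclei. In the SI pair it was -0.14, 0.08 and 0.18, against 0.38. These bins leave out nuclei with no mitochondrial UMI, which were 690 pyramidal nuclei in Sed GH (972 CPM) and 35 in Sed SI of dataset 2. The Run libraries of dataset 2 had too few of them for a bin. Both libraries of dataset 1 had enough for this further bin, with a log2 ratio of Run to Sed of 0.20 (0.12 to 0.28). Above it and up to 0.1%, the ratio in dataset 1 was 0.10 (0.05 to 0.14), against 0.14 over all pyramidal nuclei. Nuclei of a bin still differed in depth between the libraries, with medians of 2941 UMIs in Run and 1082.5 in Sed in the uppermost bin of the GH pair.

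For Ubb alone the ratio within the bins was 0.21, 0.39 and 0.80 in the GH pair of dataset 2 and -0.14, 0.26 and 0.26 in the SI pair. In dataset 1 it was 0.93 among nuclei with no mitochondrial UMI and 0.58 up to 0.1%, against 0.71 over all pyramidal nuclei. Ubb was thus above 0 in every bin but the lowest of the SI pair. Hsp90ab1 was below 0 in all 3 bins of both pairs of dataset 2, at -0.57, -0.21 and -0.10 under GH.

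**Figure D3:**
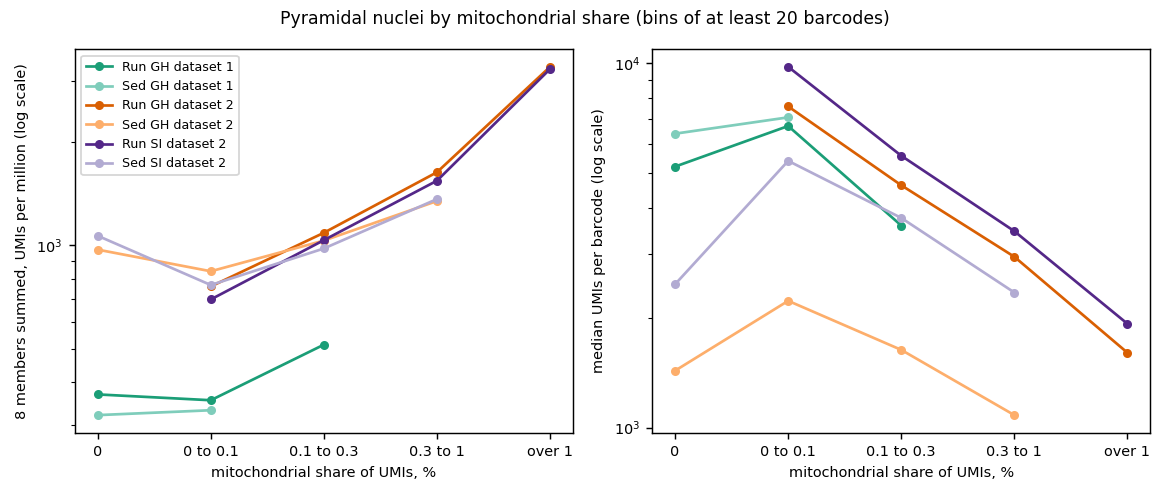
Summed level of the 8 genes in UMIs per 1000000 (left, log scale) and median UMIs per barcode (right, log scale) of pyramidal nuclei by mitochondrial share (x axis, %), 1 line per library and bins of at least 20 barcodes. In dataset 2 the level rises and the depth falls over the bins above 0, and in the left panel the lines of dataset 1 lie below those of dataset 2.

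How often a nucleus held a UMI of Ubb depended on depth and dataset. At full depth 7.50% and 4.93% of pyramidal nuclei in Run GH and Sed GH of dataset 1 and 48.2%, 15.7%, 47.9% and 30.5% in dataset 2 had one. With each nucleus thinned to 1000 UMIs, which left out 625 shallower nuclei of Sed GH in dataset 2, the shares were 1.24%, 0.806%, 17.3%, 8.59%, 15.6% and 9.85%. No class is known to lack these mRNAs, so no class could serve as a blank, and the background levels above take that place. In nuclei with a Ubb UMI after thinning, the other 7 genes were together 1.16-fold (1.10 to 1.22) higher than in nuclei without one in Run GH of dataset 2, 1.12-fold (1.00 to 1.24) in Sed GH, 1.14-fold (1.07 to 1.20) in Run SI and 1.09-fold (0.98 to 1.20) in Sed SI. In dataset 1 the fold was 1.07 (0.73 to 1.52) in Run GH and 0.95 (0.47 to 1.71) in Sed GH, so the intervals of 3 of the 6 libraries included 1.

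Classes were compared with pyramidal nuclei of the same library in 1 edgeR fit (library as block, 10074 genes, adjustment within each class), after clustering that left out the 8 genes, mitochondrial genes and ribosomal protein genes. VIP interneurons, astrocytes and both oligodendrocyte classes had the most of the 8 genes called higher, and PV and SST interneurons had 0 called higher. The nuclei of the former were also shallower, in oligodendrocytes not in every library. Per library, the median UMIs of a nucleus were 45.9% to 54.9% of those of pyramidal nuclei in oligodendrocyte precursors, 47.1% to 65.2% in astrocytes, 53.8% to 65.3% in VIP interneurons and 48.3% to 84.2% in oligodendrocytes, against 74.8% to 81.1% in SST and 77.4% to 89.2% in PV interneurons. The upper bound on background RNA in dataset 1 was 44.7% to 63.9% of UMIs in those 4 classes and 31.7% to 34.7% in PV and SST interneurons, against 19.0% and 19.2% in pyramidal nuclei. In dataset 2 it ranged from 6.41% to 49.2% in the 4 classes and from 9.95% to 16.2% in PV and SST interneurons. The 6.41%, of oligodendrocyte precursors in Sed SI, rests on 2 marker UMIs. The value of VIP interneurons in Sed GH (13.4%) rests on 3, so bounds of small classes are imprecise in dataset 2. Microglia, with 0 genes called higher, had a bound of 25.5% to 55.2% there and a depth of 72.6% to 94.9% of pyramidal nuclei. NPY interneurons, with 2 called higher, had a bound of 12.05% to 20.48% in dataset 2 and a depth of 64.0% to 77.3% over all libraries. The part of depth and background RNA in the calls below was not tested. In astrocytes 6 of 8 genes were higher (30.6% of all genes were called higher) and Calm2 was lower (32.4% lower). The higher genes were Fth1 (0.74 ± 0.11 on the log2 scale), Hspa8 (0.73), Eef1a1 (0.67), Actb (0.61), Ubb (0.59) and Hsp90ab1 (0.27), with adjusted p from 3.38e-10 to 0.0104 (edgeR). In oligodendrocyte precursors 7 of 8 were higher (18.3%), all but Calm2, from Hsp90ab1 at 0.31 (adjusted p 0.0369, edgeR) to Actb at 0.69 (4.58e-06). In oligodendrocytes 5 of 8 were higher (11.5%), with Fth1, whose product stores the iron that myelin making needs, at 0.56 ± 0.15 and Hsp90aa1 and Actb both at 0.49.

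Among interneurons, VIP interneurons had 5 of 8 genes higher (12.2% of all genes), with Fth1 at 0.78 ± 0.15, Ubb at 0.74 ± 0.15 and Hspa8 at 0.71 ± 0.14 (adjusted p 1.32e-05 to 2.83e-05, edgeR). NPY interneurons had 2 higher (14.9%), Ubb at 0.50 and Hspa8 at 0.35, and Calm2 lower at -0.28 (18.8% lower). In dataset 2, 197 of the NPY nuclei form a cluster with 1 of 6 detected NPY markers up, and its leading genes, such as Bnc2, Meis2 and Foxp2, hold none of those markers. In an alternative chosen after seeing the data, without it and without a cluster of 219 PV nuclei with 2 of 6 markers up, Ubb was still called in NPY nuclei (0.49, adjusted p 0.00263, edgeR) and Hspa8 was not (0.18, adjusted p 0.391). PV interneurons had 0 higher (21.6%) and 1 lower (27.2%), Calm2 at -0.30, and SST interneurons likewise 0 higher (17.8%) and 1 lower (22.8%), Calm2 at -0.36. Microglia, in 4 libraries, had 0 of 8 called by edgeR (14.1% of all genes called higher). In these 3 classes edgeR gave 0, 2 and 1 of the 8 genes as higher at an unadjusted p under 0.05 (PV, SST and microglia), and DESeq2 called 0, 3 and 2. With library totals in place of TMM factors, and with DESeq2, Calm2 stayed below pyramidal nuclei in astrocytes and in NPY, PV and SST interneurons but was called only in the last. In the main fit all 4 lower calls of Calm2 were lost without Run GH or without Sed GH of dataset 1 (log2 -0.24 to -0.08, adjusted p 0.0777 to 0.749, edgeR). The PV call was also lost without Run GH (adjusted p 0.0648, edgeR) or Run SI (0.0536) of dataset 2, and the NPY call without Run GH (0.0692), Sed GH (0.115) or Sed SI (0.109).

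Scaling set how many class differences were called. On plain CPM, without TMM factors, Hspa8 and Hsp90ab1 were above pyramidal nuclei in 6 of 6 libraries in PV interneurons (log2 ratio 0.23 ± 0.12 and 0.25 ± 0.11, SD) and in SST interneurons (0.34 ± 0.18 and 0.32 ± 0.18). The 8 classes gave 25 higher and 4 lower calls on the 8 genes in all, 44 and 1 with library totals, and 36 and 1 with DESeq2. Of all genes called per class, 37.3% to 48.6% were higher in the main fit, 57.1% to 80.1% with library totals and 57.2% to 66.5% with DESeq2, and library totals moved the median of all genes by 0.14 to 0.27. Taking the upper bound on background RNA off every class left 2 higher calls, both of Fth1. That step sets 28 to 38 of the 48 values of the 8 genes per class to 0, and 32 of 32 in microglia, so it does not measure the class differences.

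The order of the classes was loose for most genes. For Ubb the mean log2 ratio to pyramidal nuclei was 0.77 ± 0.31 (SD, n = 6 libraries) in NPY interneurons, 0.73 ± 0.31 in oligodendrocyte precursors, 0.72 ± 0.21 in astrocytes and 0.68 ± 0.53 in VIP interneurons. It was 0.62 ± 0.46 in oligodendrocytes, 0.29 ± 0.36 in SST interneurons, 0.26 ± 0.48 in microglia (n = 4) and -0.04 ± 0.44 in PV interneurons. None of the 8 pairs of neighbours in this order differed by more than the SD of their difference. The same held for Hsp90ab1 and Calm2, while 2 pairs did for Hspa8 and for Actb and 1 pair for Hsp90aa1, Fth1 and Eef1a1. In oligodendrocyte precursors of Sed GH in dataset 2 (21 nuclei) Fth1 had 0 UMIs, so its mean there rests on 5 libraries.

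**Figure D4:**
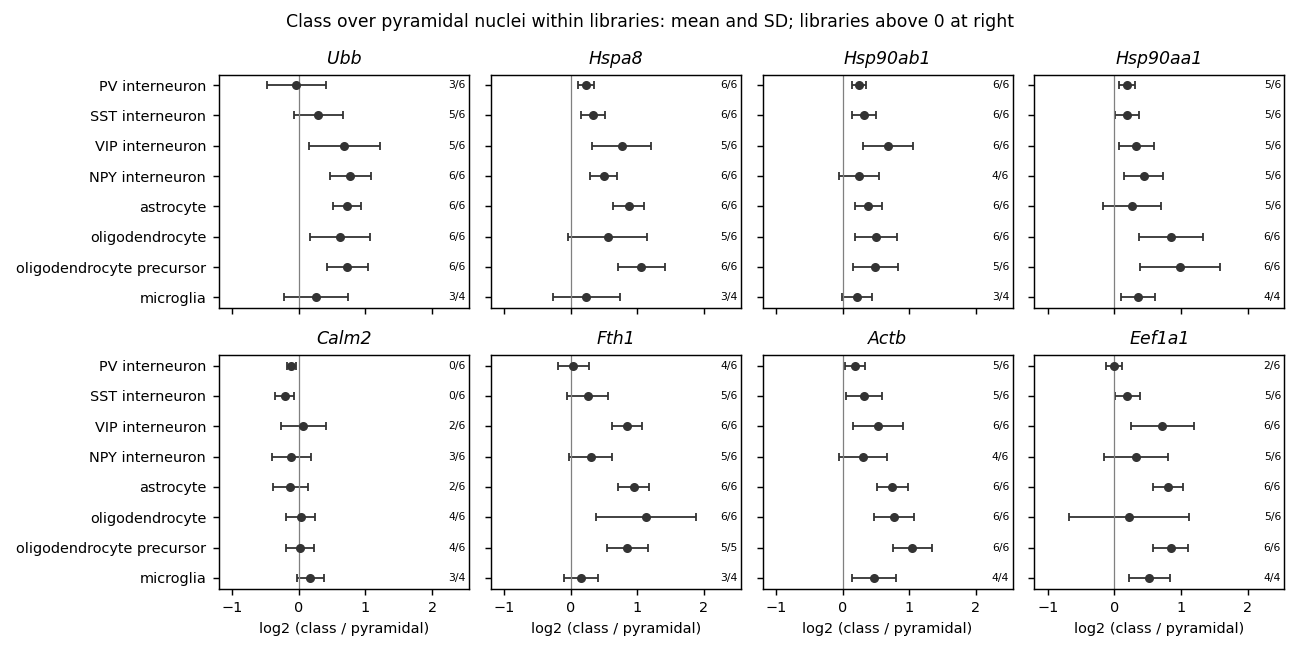
Log2 ratio of UMIs per 1000000 in each class over pyramidal nuclei of the same library (x axis) for the 8 genes, as the mean (point) and SD (bar) over libraries, with the number of libraries above 0 at the right. Astrocytes and oligodendrocyte precursors lie right of 0 for Ubb, Hspa8, Fth1, Actb and Eef1a1, and Calm2 stays near 0 in every class.

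The related lists were counted in the same classes. Mitochondrially encoded genes were called higher than in pyramidal nuclei in 11 of 11 tested in astrocytes, 11 of 11 in oligodendrocyte precursors, 7 of 11 in oligodendrocytes and 8 of 11 in VIP interneurons. They were also higher in 8 of 11 in NPY interneurons, where 2 of the 8 genes were, and in 4 of 11 in SST interneurons, where 0 were, against 0 of 11 in PV interneurons and in microglia. Ribosomal protein genes were higher in 28 of 32 in astrocytes and 22 of 32 in precursors, but in 2 of 32 in oligodendrocytes, beside 30.6%, 18.3% and 11.5% of all genes. They were higher in 9 of 32 in VIP, 7 of 32 in NPY, 6 of 32 in SST and 1 of 32 in PV interneurons, where 12.2%, 14.9%, 17.8% and 21.6% of all genes were called higher, so the SST count was near that share and the PV count below it. Nuclear-retained RNAs were lower in 6 of 9 in astrocytes and in 7 of 9 in precursors, where 32.4% and 23.7% of all genes were. They were also lower in 6 of 9 in oligodendrocytes and 5 of 9 in microglia (19.4% and 15.1% of all genes). In VIP, NPY, SST and PV interneurons 3, 3, 2 and 1 of 9 were lower (17.4%, 18.8%, 22.8% and 27.2% of all genes), and 2, 1, 4 and 4 were higher. Cytoplasmic chaperones were higher in 7 of 28 in astrocytes and 5 of 28 in precursors, no larger a share than that of all genes called higher there (30.6% and 18.3%). Mitochondrial RNA was thus high in classes with many and with few of the 8 genes called, and its part in the results was not tested.

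Housing was tested in the same fit of 6 libraries. Its term is shared by Run and Sed, so opposite differences of SI against GH in Run and in Sed would cancel in it. Ratios of that kind are given among the results flagged for a closer look. A housing effect that differs between Run and Sed was not tested. For SI against GH, 0 of 8 genes were called in nuclei of all classes (0% of 18761 genes), in pyramidal nuclei (0% of 17962) and in background droplets (0% of 17667). At an unadjusted p under 0.05, edgeR gave 170, 165 and 291 genes, and DESeq2 called 0 in each. Log2 differences of the 8 genes ran from -0.16 (Hspa8) to 0.07 (Eef1a1) in all nuclei and from -0.13 (Ubb) to 0.05 (Eef1a1) in pyramidal nuclei, with SEs of 0.10 to 0.16 in the latter. In the background they ran from -0.03 (Hspa8) to 0.23 (Fth1), with SEs of 0.26 to 0.44. The fit had 2 residual degrees of freedom, and a p that misses the threshold does not show equal levels.

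The genes most like Ubb in their levels came from several groups. Over 60 sums (classes by library and background droplets, 3719 genes of at least 50 CPM on average, log2 of CPM plus 1), the 5 genes with the highest Pearson r to Ubb were mt-Co2 (0.98), Cox4i1 (0.98), Cox8a (0.98), Rps12 (0.97) and Gapdh (0.97), which encode 3 subunits of cytochrome oxidase, a ribosomal protein and a glycolytic enzyme. To the mean of the 8 genes they were Atp6v0c (0.98), Aldoa (0.98), Tmsb4x (0.97), mt-Nd2 (0.97) and Rpl38 (0.97). The sums share libraries and the step between datasets. They also hold the Run and Sed libraries in which Ubb was selected together with mitochondrial genes. Its likeness to mt-Co2 thus partly follows from that choice, also within a dataset, and r is a description. Within dataset 2 and without background droplets (36 sums) the r of mt-Co2 to Ubb was 0.87, that of Actb 0.89, that of Calm2 0.41 and that of Fth1 0.26. The last value rests on the 1 sum of 21 nuclei in which Fth1 had 0 UMIs, and without it (35 sums, an alternative chosen after seeing the data) Fth1 was at 0.81, Actb at 0.89 and Calm2 at 0.42. Over the 59 sums left of all, mt-Co1 took the place of Gapdh among the 5 genes most like Ubb, and Ppia and Cck those of mt-Nd2 and Rpl38 for the mean of the 8. Within dataset 1 (20 sums, background included) mt-Co2 was at 0.89.

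**Figure D5:**
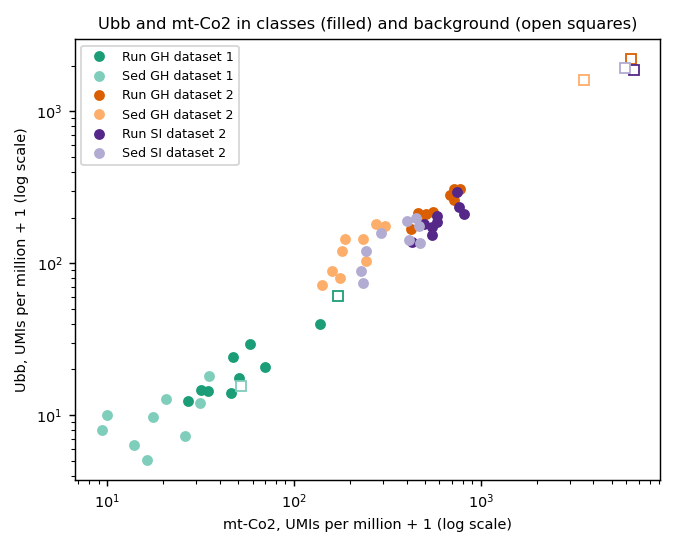
Ubb (y axis) against mt-Co2 (x axis) in UMIs per 1000000 plus 1, both on log scales, with 1 filled point per class and library and 1 open square per background. The points of dataset 1 lie at the lower left, those of dataset 2 in the middle, and the 4 background squares of dataset 2 at the upper right. Ubb was selected together with mitochondrial genes on Run against Sed in these libraries.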

How the data were processed

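Nuclei of the prelimbic cortex were sequenced in 6 libraries. The authors aligned the reads with Cell Ranger (6.0.0 per the submitters' processing notes) to mm10 with introns included, and deposited raw UMI counts of all barcodes for 32285 genes. These counts are 3′ tags that are not divided by gene length, so levels were compared within a gene only.

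Nuclei had 500 to 4000 genes, a mitochondrial share of 1% or less, and at least the library's UMI minimum (621 to 3156), set by dividing the 99th percentile of UMIs over its largest barcodes by 10. Background droplets held at least 30 UMIs and at most 310 to 1577, which lies well below that minimum in each library. Nuclei were clustered per dataset with scanpy 1.11.5 without the 8 genes, mitochondrial and ribosomal protein genes, and clusters were named from fixed markers. Clusters with a low score, a small lead over the next class fewer than 3 detected markers, or more markers of another class among its leading genes stayed unnamed, but 2 named interneuron clusters of dataset 2 had fewer than 3 markers above the other nuclei. A cluster of dataset 1 led by mitochondrial genes was also given no class. Doublet calls (1.09% to 6.75% of nuclei) were kept, and were left out in an alternative. Counts were summed per library and class (at least 20 nuclei) and tested with edgeR 4.0.16 (R 4.3.3; TMM factors, filterByExpr, quasi-likelihood test, two-sided, Benjamini-Hochberg adjustment over all genes tested). The terms were cohort, maternal environment and housing, or library and class or compartment. SEs of edgeR values were derived from the test, as the size of the log2 fold change over the square root of its F statistic. DESeq2 1.42.0 was an alternative. Intervals are exact at 95% and cover counting error only, and p-values rest on libraries of pooled mice. A ratio needed 50 UMIs over its pair of libraries. CPM is UMIs of a gene per 1000000 UMIs of the sum.

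The replicate number of the titles is the cohort, which marks libraries of the same experiment, each from its own mice. The cohort term is thus the pairing and stood in every main fit of maternal environment and housing, while some alternatives left it out.

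The 8 genes and the lists were chosen with earlier results of these data known. Named genes were the 8 in every comparison, up to 2 per list and direction with the largest change among those called with at least 100 summed UMIs, and the 5 genes most like Ubb or the mean of the 8. On simulated counts for the cohort difference in all nuclei (18761 genes), the edgeR step recovered 46% of genes changed by 1 on the log2 scale. It recovered 78% of those changed by 2. The shares were 42% and 72% for housing, and 23% and 78% for background against nuclei. Only 100 genes were changed per size, far fewer than were called for the cohort difference or the background, so these rates do not carry over to those results. The cohort and housing fits left 2 residual degrees of freedom, background against nuclei 5 and the class fit 38. Results of 1 gene list are not reported here.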

Additional observations from a re-analysis of the deposited data

Results flagged for a closer look

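Several ratios of the 8 genes pointed in opposite directions in 2 pairs of libraries. Each side is 1 library against another, so these differences were not tested.

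For SI against GH in dataset 2, Fth1 in pyramidal nuclei was at a log2 ratio of -0.12 in Run and 0.14 in Sed, a difference of -0.26 (Run minus Sed). In background droplets Ubb was at -0.23 in Run and 0.25 in Sed (difference -0.49), Fth1 at -0.03 and 0.41 (-0.44), and Calm2 at -0.06 and 0.10 (-0.17). The same 4 libraries give the ratio of Run to Sed in the GH and SI pairs. In the background it was 0.45 and -0.04 for Ubb (difference 0.49), 0.23 and -0.21 for Fth1 (0.44) and 0.09 and -0.10 for Hspa8 (0.19).

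Between the GH pairs of the datasets, the background ratio of Run to Sed was 1.03 in dataset 1 and -0.24 in dataset 2 for Hsp90ab1 (difference 1.28), 1.02 and -0.28 for Hsp90aa1 (1.30), and 0.51 and -0.06 for Calm2 (0.57).

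Outside the nuclei compared, 290 barcodes of Run GH and 229 of Run SI in dataset 2 met the other limits but had more than 1% mitochondrial UMIs, against 1 in Sed GH and 3 in Sed SI. Those of them in pyramidal clusters carried 3306 and 3258 CPM of the 8 genes.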

How the results depend on the processing

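The call of most values of the 8 genes did not depend on the settings tried. Of the values, 1879 were unchanged in call, 91 gained one, 82 lost one and 16 were reversed. The unchanged ones include values called under neither setting, for which a change of direction was not counted. In all nuclei, 5 of 8 genes were called higher in dataset 2 with no UMI minimum, 4 among nuclei with no mitochondrial UMI and 0 with background subtracted. In pyramidal nuclei the last 2 settings gave 2 and 0. Only 3 nuclei of Run GH and 1 of Run SI in dataset 2 had no mitochondrial UMI. In the last setting the upper bound on background RNA was subtracted, which sets a gene that lies under the bound to 0, 28 of 32 values of the 8 genes in pyramidal nuclei of dataset 2 and 1 of 16 in dataset 1. Its lost calls and its values follow from that step and are no measured differences. Cohort log2 differences with it in all nuclei were -12.1 (Actb), -11.4 (Hspa8), -3.04 (Eef1a1), -9.07 (Ubb), -13.0 (Hsp90aa1), -12.8 (Hsp90ab1), -2.89 (Calm2) and -8.43 (Fth1). In pyramidal nuclei they were -11.4 (Actb), -10.7 (Hspa8), -4.83 (Eef1a1), -12.7 (Hsp90aa1), -12.3 (Hsp90ab1) and -2.84 (Calm2). In astrocytes Actb was at -6.50 and Hsp90ab1 at -1.41.

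The median Run against Sed coefficient of the 8 genes was 0.34 in all nuclei, 0.31 in pyramidal nuclei and 0.24 in the background. It was -0.21 and -0.24 in nuclei with no mitochondrial UMI and -0.57 and -0.59 with background subtracted. In the background it was -0.65 for droplets of 10 to 99 UMIs (51011 and 55556 UMIs in dataset 1) and -0.055 in dataset 2 alone. Leaving out 1 library at a time gave 0.27 to 0.41, 0.23 to 0.40 and -0.038 to 0.37, the last below 0 without Run GH (-0.038) or Sed GH (-0.037) of dataset 1. With no replicate block (no cohort term) it was 0.39, 0.37 and 0.03, and housing still gave 0 calls among the 8.

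The higher calls in the 8 classes (25) became 44 with library totals, 15 with no filter on low counts and 2 with background subtracted. The 4 lower calls became 1 with DESeq2, with library totals and with doublet calls left out, and 2 with the 8 genes kept for clustering. Leaving out 1 library gave 22 to 41 higher calls (41 without Sed GH of dataset 1) and 0 to 3 lower (0 without either library of dataset 1, 2 without Run GH of dataset 2). The cohort difference kept 7 to 8 calls in pyramidal nuclei and 8 in all nuclei and in the background, background against nuclei 8, and housing 0. With the interneuron clusters named on fewer than 3 markers left out, an alternative chosen after seeing the data, the 25 and 4 calls were the same in number, with 1 instead of 2 higher in NPY and 6 instead of 5 in VIP interneurons. The cause of the other changes was not tested.

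Over all genes, 11564 were called for background against nuclei (3514 to 12448 under other settings), 7366 for the cohort difference in all nuclei (1179 to 8224, and 4011 to 9743 without 1 library), 6834 in pyramidal nuclei (904 to 7183, 2550 to 9033) and 12534 in the background (1267 to 13148). Housing went from 0 to at most 8 under other settings, and to 29, 27 and 111 in all nuclei, pyramidal nuclei and background without a library of dataset 1. PV interneurons had 4916 (3163 to 6518), SST interneurons 4090 (2646 to 5263) and microglia 2934 (1828 to 2759 without 1 library).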

Other observations

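In dataset 1, 1 cluster of 455 nuclei was given no class, with Gm48099, Gm19951 and Xlr5a as its leading genes and Gm42418, mt-Nd5 and mt-Atp8 among the next. Its highest class score was that for pyramidal nuclei (0.73, the next 0.449), but it was kept apart as led by mitochondrial genes. Its nuclei are not in the pyramidal sums, and the effect of this on the pyramidal values was not tested. The cluster held 233 nuclei of Run GH and 222 of Sed GH. Ubb was at 39.1 CPM (25 UMIs) in the former and 10.96 CPM (9 UMIs) in the latter, and the 8 genes made up 0.0995% and 0.0537% of its UMIs, above the 0.0382% and 0.0335% of all nuclei of those libraries.

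At least 1 UMI of the 8 genes was present in 87.3% of nuclei of Run GH and 86.4% of Sed GH in dataset 1, and in 98.7%, 81.6%, 99.3% and 96.3% in dataset 2 (Run and Sed under GH, then under SI).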
